A study of Triticum aestivum with 6 samples.

Results

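A set of 158 root genes of bread wheat was already transcribed in control roots and had at least 4 times that level in roots exposed to signals of a mycorrhizal fungus. They were chosen by 3 limits on the deposited values of the 2578 genes and assembled loci in the table: at least 1 FPKM in the control, a ratio of at least 4, and under 100 FPKM in the signal treatment. FPKM is a count of sequenced fragments corrected for the length of the transcript and for the size of the library. Because these same values chose the genes, their levels and ratios are a description, and no test is attached to them. The identifiers place 134 of the genes on a named chromosome, and the other 24 are loci assembled from the reads, with no chromosome in the identifier.

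Roots of Triticum aestivum, cultivar Chinese Spring, a hexaploid wheat with subgenomes A, B and D, were compared between 2 treatments of 3 biological replicates each, in pots of 15 plants in steam-sterilised soil and quartz sand. In the signal treatment (MSC), 15 membrane bags with a pore size of 0.25 µm each held 25 g of inoculum of Rhizophagus irregularis, isolate BGC-HEB07D. In the control (NM), the 15 buried bags held 20 g of inoculum that had been sterilised with steam, together with a filtrate of unsterilised inoculum. The treatments therefore differed in the live fungus, in the steam treatment of the inoculum, in the added filtrate and in the mass of inoculum, which cannot be told apart here. The labels give the pore size for the MSC bags only. The labels name no batch and no number of pots per replicate. The table gives 1 FPKM value per treatment, so there is no replicate value, standard error or p-value for any gene, and the depth is unknown. A mean of 3 libraries does not show whether 1 library or all 3 had the larger level. In whole roots, more cells of a type and more RNA per cell cannot be told apart.

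Arbuscular mycorrhizal fungi live in the root cortex of most land plants, to which they deliver phosphate in exchange for sugars and lipids. Before contact, roots exude strigolactones that stimulate the fungus, and the fungus releases lipochitooligosaccharides and short chitin oligomers that plant receptor kinases with LysM domains perceive. In legumes and rice these signals pass through the common symbiosis pathway, in which the nuclear kinase CCaMK and its partner CYCLOPS act on symbiosis genes. The membrane bags were meant to leave such exchange of dissolved molecules in place and to prevent contact. The reference table of gene names matched 0 of all 2578 listed identifiers, so it does not show whether the genes are annotated elsewhere. It matched 0 of the 158 identifiers, so the genes cannot be assigned to these steps. Root marker genes could not be looked up for the same reason.

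The typical gene of the set was at a low level in control roots and at a moderate level in MSC roots. Its NM level had a median of 2.34 FPKM, with quartiles of 1.56 and 4.39 FPKM and a range from 1.01 to 17.9 FPKM. Its MSC level had a median of 16.02 FPKM, with quartiles of 9.63 and 29.3 FPKM and a range from 4.07 to 95.1 FPKM. The ratio of MSC to NM had a median of 5.48, with quartiles of 4.66 and 7.34 and a highest value of 22.8. Most ratios therefore lay close to the limit: 58 genes were between 4- and 5-fold, 37 between 5- and 6-fold, 30 between 6- and 8-fold, 23 between 8- and 12-fold, and 10 at 12-fold or more.

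**Figure D1:**
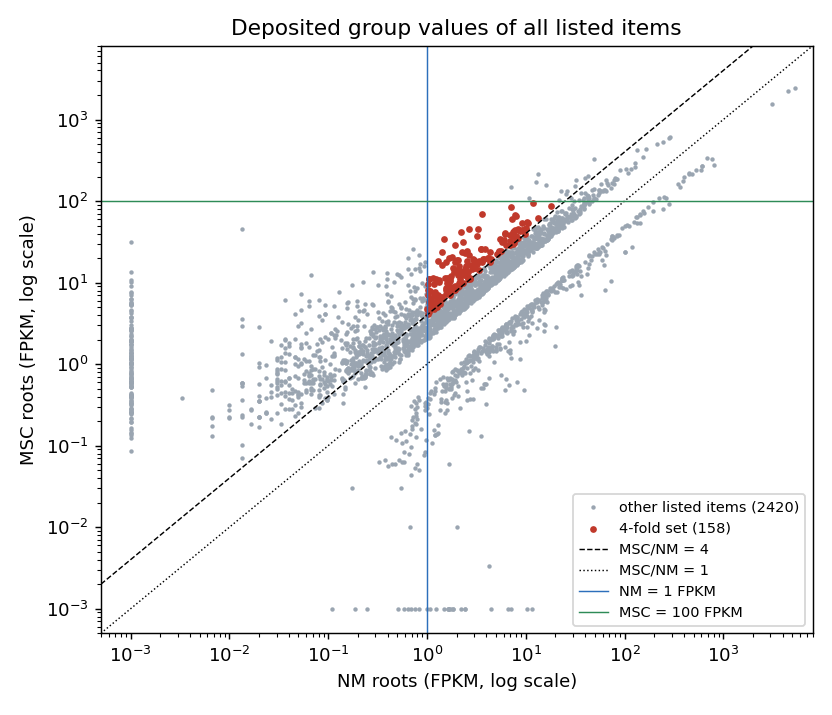
Each point is a listed gene or locus, with its NM value on the x axis and its MSC value on the y axis, both in FPKM on log scales. The 158 genes of the set lie right of 1 FPKM in NM, on or above the dashed line of a 4-fold ratio and below 100 FPKM in MSC, and the empty band around the dotted line shows that items under 2-fold are not listed.

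The genes made up 6.13% of all listed items and 7.68% of the 2056 listed items that were higher in MSC. Summed over the set, the level was 560 FPKM in control roots and 3440 FPKM in MSC roots, a ratio of sums of 6.14, against 2.87 for all listed items higher in MSC. Each gene of the set has a ratio of at least 4 by the rule, so a ratio of sums above 2.87 was fixed in advance. The set held 12.1% of the summed gain in FPKM of the listed items higher in MSC. Sums over genes in FPKM weight each transcript per unit of length and do not count fragments.

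Among listed items that met the same limits on level and were higher in MSC, 1067 in number, the set is the 14.8% that reached 4-fold. The other 909 had a median ratio of 2.51 and a median NM level of 5.00 FPKM, so they were at a higher level in control roots than the set, with 2.34 FPKM. In MSC roots the order was the other way, with medians of 12.6 FPKM for the 909 and 16.02 FPKM for the set. The split was made on the ratio of these same values, so both orders are built in at least in part. The mirror image of the rule, with at least 1 FPKM in MSC, under 100 FPKM in NM and a 4-fold lower value in MSC, held 18 genes. These were 5.98% of the 301 listed items that were lower in MSC within the same limits. Their median level was 11.8 FPKM in control roots and 2.12 FPKM in MSC roots, and their median ratio was 5.16 in the other direction. At 8-fold or more there were 33 higher genes and 1 lower gene, and at 12-fold or more 10 and 0. The scaling between libraries is not given in the sources used here, and a common factor between the groups would move both counts. MSC values were also divided so that both groups had the same upper quartile over the listed items, a log2 shift of -1.04. The smallest listed change was 2.00-fold and 79.8% of listed items were higher in MSC, so this shift depends on which items were listed. It cannot estimate the scaling between libraries. All 158 genes still had the larger value in MSC, as a ratio of at least 4 ensures at this shift. Of these, 150 were higher by at least 2-fold and 28 by at least 4-fold. The same shift makes each of the 301 lower items lower still, so the contrast between 158 and 18 depends on the unknown scaling.

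**Figure D2:**
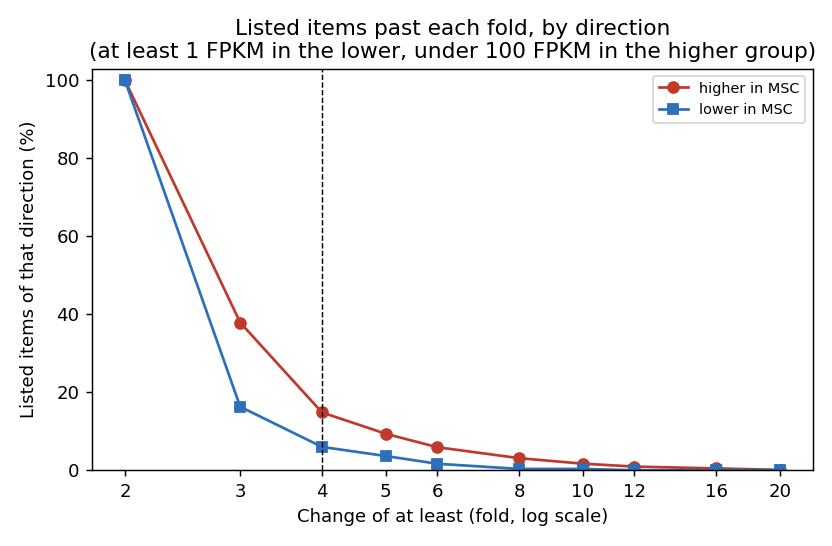
The x axis is a limit on the fold change on a log scale, and the y axis is the percentage of listed items of each direction that reached it, among 1067 items higher in MSC (circles) and 301 lower (squares) within the limits on level. At 4-fold, the dashed line, the percentages were 14.8% and 5.98%.

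The rule bounds both level and ratio, so how they vary together within the set is given as a description only. The 64 genes with 1 to 2 FPKM in NM had a median ratio of 5.97, the 55 genes with 2 to 5 FPKM a median of 5.52, and the 33 genes with 5 to 10 FPKM a median of 4.82. The 6 genes of 10 FPKM or more had a median of 4.99 and reached at most 7.98, a range that the limit of 100 FPKM in MSC narrows. The rank correlation of NM level with ratio over the 158 genes was -0.17, and that of NM with MSC level was 0.86. The first has the NM value on both sides, and both are shaped by the limits of the rule. In MSC roots, 44 of the genes lay under 10 FPKM, with a median ratio of 4.73, and 69 lay between 10 and 25 FPKM, with a median ratio of 6.04. Another 34 lay between 25 and 50 FPKM and 11 at 50 FPKM or more, with median ratios of 5.54 and 7.98.

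The largest ratio belonged to XLOC_023797, an assembled locus, at 1.49 FPKM in control roots and 34.0 FPKM in MSC roots, a ratio of 22.8. Its row was the only one of the 158 among the 21 rows of the table that stand out of the order of the identifiers, so its values may belong to another identifier. The next ratio was that of another assembled locus, at 3.64 FPKM in control roots and 69.2 FPKM in MSC roots, a ratio of 19.0. The highest MSC level belonged to Traes_1BL_6518E3320, on the long arm of chromosome 1B. Its level was 11.9 FPKM in control roots and 95.1 FPKM in MSC roots, a ratio of 7.98, and the third highest NM level of the set.

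The long arms of chromosomes 2A, 2B and 2D each held a gene among the 8 largest ratios. The gene on 2BL went from 2.20 to 41.6 FPKM, a ratio of 18.9. The gene on 2AL went from 2.68 to 45.9 FPKM, a ratio of 17.1. The gene on 2DL went from 3.28 to 45.4 FPKM, a ratio of 13.8. Their NM and MSC levels lie close together across the 3 subgenomes, but the genes were picked among the largest ratios after the values were seen. The identifiers do not say whether they are the A, B and D copies (homoeologs) of one gene, and close levels cannot show it. Another pair of genes of the 10 largest ratios was also on 2BL. One was at 1.297 FPKM in control roots and 18.2 FPKM in MSC roots, a ratio of 14.03. The other was at 7.03 and 84.6 FPKM, a ratio of 12.03. The remaining genes of the 10 were on 7DL, with 1.41 and 23.6 FPKM, on 5BL, with 1.92 and 29.3 FPKM, and on 5DS, with 2.29 and 31.7 FPKM in NM and MSC.

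Position, read from the identifiers, was not used by the rule. Members were present on all 21 chromosomes and on 35 of the 40 arms that carry listed items within the limits on level. Chromosomes with the same number in the A, B and D subgenomes form a homoeologous group. Group 2 held the most members, 43, which was 27.2% of the set with a 95% Wilson interval from 20.9% to 34.6%, against 20.1% of the 909 items that were higher by less than 4-fold. Group 5 held 24, group 7 held 22, groups 1, 3 and 6 held 12 each, and group 4 held 9. The intervals cover the counting of genes only, genes of 1 family are not independent, and no test was made over genes.

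Read against the background of 14.8%, the share of listed higher items that reached 4-fold was 19.0% in group 2 (43 of 226), 19.0% in group 7 (22 of 116) and 15.1% in group 5 (24 of 159). It was 11.9% in group 6 (12 of 101), 11.2% in group 1 (12 of 107), 10.3% in group 3 (12 of 116) and 7.76% in group 4 (9 of 116). The interval of group 4, from 4.14% to 14.1%, was the only one of the 7 that did not take in the background, while that of group 2, from 14.4% to 24.6%, just took it in. Within group 2 the share was 25.4% on 2A (18 of 71) and 22.0% on 2B (18 of 82), but 9.59% on 2D (7 of 73). Their intervals were from 16.7% to 36.6%, from 14.4% to 32.1% and from 4.72% to 18.5%. The shares of 2A and 2B count in full the members on 2AL, 2BL and 2BS whose values are identical to those of another member. The short arm 2AS stood highest of the arms with at least 10 such items, with 11 of 33. It was followed by 7DS with 4 of 17, 7BL with 5 of 22 and 7DL with 9 of 40. These arms were picked after the values were seen. The interval of 2AS, from 19.8% to 50.4%, lay above the background. Those of 7DS, from 9.56% to 47.3%, of 7BL, from 10.1% to 43.4%, and of 7DL, from 12.3% to 37.5%, took it in. On the short arms of group 2 together, 21 of 98 items reached 4-fold, and on the long arms of group 1, 6 of 52.

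**Figure D3:**
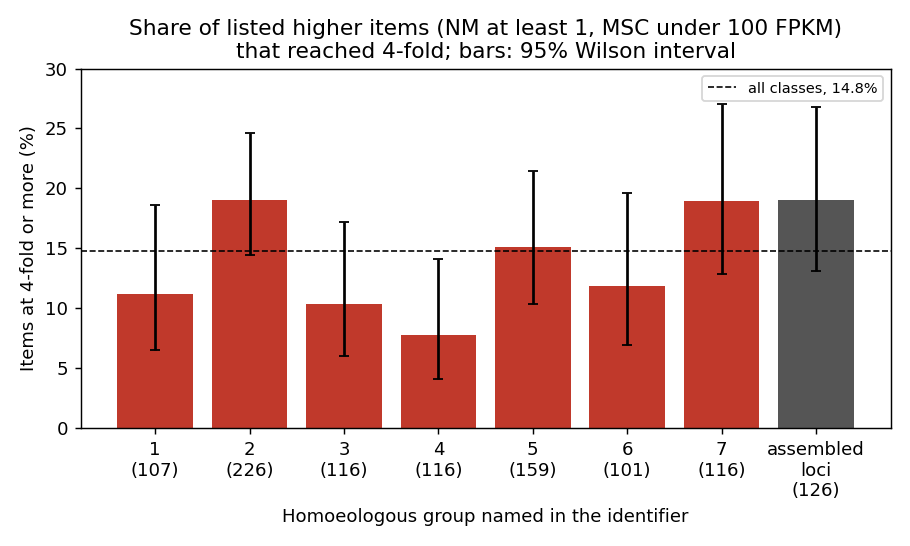
Bars give the percentage of listed items higher in MSC, with at least 1 FPKM in NM and under 100 FPKM in MSC, that reached 4-fold, by homoeologous group and for assembled loci, with the number of such items in parentheses. Error bars are 95% Wilson intervals for counting, the dashed line is the background of 14.8%, and group 4 at 7.76% is the lowest.

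At 8-fold or more there were 33 of the 158 genes, or 20.9%. They were 11 of the 43 members in group 2, 7 of the 22 in group 7, 5 of the 24 in group 5 and 5 of the 24 assembled loci. The other groups held 2 of the 9 members in group 4, 2 of the 12 in group 6, 1 of the 12 in group 1 and 0 of the 12 in group 3. The share of group 2 was 20.1% among items from 2- to 4-fold, 25.6% from 4- to 8-fold and 33.3% at 8-fold or more. The Wilson intervals of these shares, from 17.7% to 22.9%, from 18.8% to 33.9% and from 19.8% to 50.4%, overlap. Median ratios per group ran from 4.85 in group 6 to 6.04 in group 2, a narrow range beside the spread within a group. Ratios in group 2 alone ran from 4.04 to 18.9.

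**Figure D4:**
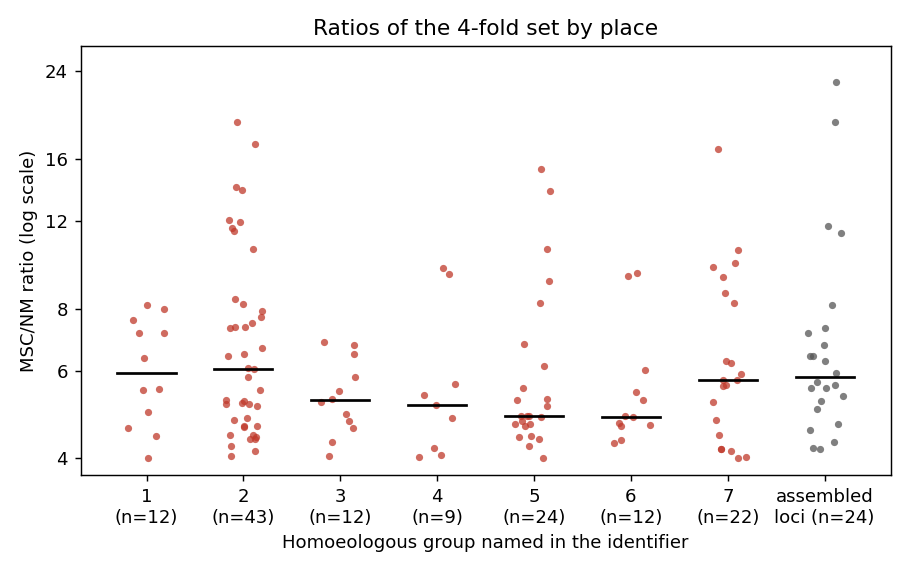
Points are the ratios of MSC to NM of the 158 genes on a log scale, by homoeologous group or, in grey, for the 24 assembled loci, and the lines are medians. Group 2 spans 4.04 to 18.9, and group 3 stays at or below 6.86.

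The subgenomes and arms showed shares near the background. Subgenome A held 39 members, B held 49 and D held 46, which was 13.8%, 14.8% and 14.1% of the listed higher items of each within the limits on level. Long arms held 87 members, 14.9% of such items, and short arms 42, 14.4%. Median ratios were 5.45 in A, 5.18 in B and 5.56 in D.

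Genes with Traes identifiers made up 130 of the set, assembled loci 24, and genes of the separate annotation of chromosome 3B 4. Against the background of 14.8%, these were 14.7%, 19.0% and 7.41% of the listed higher items of each kind, with intervals from 12.5% to 17.1%, from 13.1% to 26.8% and from 2.92% to 17.6%. The assembled loci of the set were at a lower level, with medians of 1.83 FPKM in NM and 13.3 FPKM in MSC, against 2.43 and 17.9 FPKM for genes with Traes identifiers. The 4 genes of the 3B annotation had ratios from 4.75 to 6.86 and lay on 4 different numbered segments. On 1 of these segments 2 other genes were listed. The member there went from 1.65 to 11.3 FPKM, and the gene whose identifier number differed by 10 went from 3.35 to 10.4 FPKM. The gene whose number differed by 50 had the smaller value in MSC, at 1.31 FPKM against 2.94 FPKM in control roots. The numbers of the 4 members are multiples of 10, so a difference in number is not a count of genes. Of the 24 assembled loci, 3 had a listed locus with the next number, with NM and MSC values of 0.0333 and 1.05, of 0.72 and 5.60, and of 0.437 and 1.15 FPKM. All 3 were higher in MSC, as were 79.8% of all listed items.

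Identifiers that share a code were few in the set. In 4 pairs, 8 genes had the same NM and MSC value as another member and shared the code in their identifiers, apart from an extra final digit in some. One pair stood on 2AL and 2BL, with 3.52 and 25.9 FPKM in NM and MSC. Another stood on 2BS and 5DL, chromosomes of different groups, with 1.05 and 11.1 FPKM. The other pairs stood within 5AL, with 4.16 and 20.3 FPKM, and within 2BS, with 5.32 and 23.7 FPKM. In each of these, 1 identifier has an extra final digit after the shared code. The values of a pair cannot be assigned to 1 copy, so the set holds 154 distinct pairs of values.

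The limits of the rule cut through a continuous range. The lowest ratios inside were 4.004, 4.008 and 4.013, and the highest outside, at the same levels, were 3.995, 3.991 and 3.990. The lowest NM levels inside were 1.01, 1.013 and 1.017 FPKM, and the nearest outside with a 4-fold ratio were 0.997 FPKM for a pair of items and 0.987 FPKM. In all, 564 listed items with a 4-fold ratio lay under 1 FPKM in NM, 95 of them at 0.5 FPKM or more. The highest MSC levels inside were 95.1, 86.1 and 84.6 FPKM, and the nearest outside were 104, 111 and 120 FPKM. Altogether 14 items at 104 to 327 FPKM in MSC met the other limits, with ratios from 4.68 to 21.1, and 5 of them were in group 2. Rounding matters little: if each value is the mean of 3 values of 2 decimals, the ratio of a member can be off by at most 0.619%. Rounding of the ratio or of the NM level would let 1 gene leave the set and 4 enter it.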

How the data were processed

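The authors deposited 1 table with an identifier and an FPKM value for NM and for MSC, 1 value per treatment, which the sample descriptions tie to the 3 libraries of each group. Per the labels' protocols, poly(A) RNA from about 100 mg of root was cut to fragments of about 300 bp and read at 150 bp on average. RSEM 1.3.0, Cufflinks and TopHat2 appear in the submitters' processing notes without roles. Not given in the sources used here: genome build, annotation, scaling between libraries and the choice of listed items. The smallest listed change is 2.00-fold.

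Ratios are of the deposited FPKM values, without a pseudocount, and items at 0.001 FPKM, taken as the authors' stand-in for 0, have no ratio. The members were chosen with earlier results of these data known. The planned limma fit could not be run on 1 value per group, so no test was made. Chromosome, arm and copy code were read from the identifiers, of which the reference table (IWGSC CS RefSeq v2.1) matched 0. Without names, the rule for single genes gave the member with the largest ratio and the one with the highest MSC level, and other genes mentioned were chosen after their values were seen. Shares have 95% Wilson intervals. How the ratio limit was applied was checked on simulated data in which only planted items were raised 4-fold. The limits on level were not exercised by that check. Analyses used Python 3.11.15, NumPy 2.4.6, pandas 2.3.3, statsmodels 0.14.6, SciPy 1.17.1 and matplotlib 3.10.9.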

Additional observations from a re-analysis of the deposited data

How the results depend on the processing

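The number of genes follows the limits by construction. It was 253, 94 and 39 with an NM minimum of 0.5, 2 and 5 FPKM, 722 with none, and 404, 100 and 33 when the ratio limit was 3, 5 and 8. With a pseudocount of 1 and 5 FPKM it was 98 and 16, and after rescaling to the same upper quartile 32. The limit of 100 FPKM was applied to the rescaled MSC values, so the 32 include items above it before rescaling. Of the 158 genes, 28 stayed at 4-fold or more after rescaling. That rescaling rests on the listed items only, so it does not estimate the scaling between libraries. With a pseudocount of 0.1 FPKM, no upper limit on MSC, copies counted once or the rows out of order left out, it stayed within 1.5 times of 158. The median log2 ratio of 2.46 became 2.27 with an NM minimum of 5 FPKM, 2.90 with none, 1.89, 2.72 and 3.40 when the ratio limit was 3, 5 and 8, and 2.33 with a pseudocount of 1 FPKM. The share of group 2, 27.2%, was 38.5% with an NM minimum of 5 FPKM, 43.8% with a pseudocount of 5 FPKM and 37.5% after rescaling. It stayed within its interval of 20.9% to 34.6% in the other 11 alternatives. The share of subgenome D, 29.1%, was 39.4% at a ratio of at least 8 and 37.5% after rescaling. That of assembled loci, 15.2%, was 2.56% with an NM minimum of 5 FPKM and 24.0% with none. The cause of these shifts in shares was not tested. No paired analysis was possible because only group values are in the table, which also meant that no replicate could be left out. The depth behind low values is unknown.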
